A study of Mus musculus with 12 samples.

Results

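Mouse pluripotent cells that had all passed through an enucleated oocyte were compared by the origin of the transferred nucleus. In NT-iPSCs the nucleus came from an induced pluripotent stem cell (iPSC), and in NT-ESCs it came from a mouse embryonic fibroblast (MEF). The comparison took the 2 NT-iPSC libraries (51 and 52) against the 2 NT-ESC libraries (71 and 72) of a series of 12 small RNA libraries. Of 1042 miRNAs in the table, 834 had a value above the table minimum in at least 2 of these 4 libraries and are described here. The values of 739 of them were above the minimum in all 4 libraries, of 52 in 3 and of 43 in 2. A miRNA just inside this limit, with 2 libraries above the minimum, held at most 6 reads in any library, and one just outside it, with 1, held at most 4.

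Cells of both types had the strain background C57B6/129SvJae F1 and, like the iPSCs of the series, went back to the same MEF line. NT-iPSC nuclei had met c-Myc, Klf4, Oct4 and Sox2, expressed from a lentivirus that doxycycline switches on, before the oocyte, and NT-ESC nuclei had not. Both types were grown on irradiated MEFs with leukaemia inhibitory factor. The libraries of a type were batches of RNA from 1 line. The p-values therefore measure the spread between such batches and say nothing about how other lines of the same kind would vary. The other libraries were 3 of MEFs, 3 of ESCs and 2 of iPSCs.

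A miRNA is cut from a hairpin precursor as its 5p or its 3p arm, and it represses mRNAs that pair with its seed, bases 2 to 8. Many miRNAs of pluripotent cells come from clusters that are transcribed as one unit. The miR-290 and miR-302 clusters mark pluripotent cells, and the miR-17-92 cluster with its paralogs promotes proliferation. Some clusters are imprinted, so that only the copy from one parent is active. The Dlk1-Dio3 domain expresses its miRNAs from the maternal chromosome along the noncoding RNAs Meg3, Rian and Mirg, and its activity is a known marker of the developmental potential of mouse iPSCs. A rodent-specific repeat of miR-297, miR-466, miR-467 and miR-669 genes lies in an intron of the paternally expressed gene Sfmbt2.

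The mature sequences below belong to the miRNAs on which the comparison turned and for which RefSeq (GRCm38.p6) holds an entry; seeds are in capitals. The strongest single miRNAs that were higher in NT-iPSCs come from separate loci:
miR-184-3p: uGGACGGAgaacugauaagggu
miR-296-3p: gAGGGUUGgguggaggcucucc
miR-344-3p: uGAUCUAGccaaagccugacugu
miR-22-3p: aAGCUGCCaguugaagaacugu
Also higher were miR-132-3p, shown with miR-212-3p of the same seed and the same transcript, and members of the Dlk1-Dio3 domain and of an X-linked cluster:
miR-132-3p: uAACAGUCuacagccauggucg
miR-212-3p: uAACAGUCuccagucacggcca
miR-434-5p: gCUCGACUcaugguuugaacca
miR-382-5p: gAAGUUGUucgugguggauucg
miR-382-3p: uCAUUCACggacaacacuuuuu
miR-465a-3p, miR-465b-3p and miR-465c-3p: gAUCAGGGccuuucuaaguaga
Lower in NT-iPSCs were miR-17-5p and miR-20b-5p with a common seed, miR-18a-5p of the same cluster as miR-17-5p with another seed, the pair miR-130a and miR-130b with its own, and the hypoxia-induced miR-210:
miR-17-5p: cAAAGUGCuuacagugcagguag
miR-20b-5p: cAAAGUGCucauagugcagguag
miR-18a-5p: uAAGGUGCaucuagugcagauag
miR-130a-3p: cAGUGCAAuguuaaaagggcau
miR-130b-3p: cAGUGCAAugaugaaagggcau
miR-210-3p: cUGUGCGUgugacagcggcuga

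In GRCm38, miR-184-3p lies on chromosome 9 at chr9:89802263-89802284, minus strand, and miR-296-3p on chromosome 2 at chr2:174267058-174267079, minus strand, both outside the other genes of GENCODE M21. miR-344-3p has 2 copies on the minus strand of chromosome 7, at chr7:61877782-61877804 in an intron of A230057D06Rik and at chr7:61940036-61940058 in an intron of A330076H08Rik. miR-22-3p, at chr11:75463772-75463793, is in an exon of Mir22hg and of the protein-coding Tlcd2 on the same strand, while miR-132-3p, at chr11:75173723-75173744, is in an intron of 1700016P03Rik. miR-434-5p, at chr12:109594528-109594549, lies opposite an exon of Rtl1, and miR-382-3p, at chr12:109733819-109733840, in an exon of Mirg. miR-465a-3p is at chrX:66839063-66839084. miR-17-5p, at chr14:115043684-115043706, and miR-18a-5p, at chr14:115043867-115043889, share an exon of Mir17hg, and miR-20b-5p is on chromosome X at chrX:52742159-52742181. miR-130b-3p, at chr16:17124071-17124092, is in an intron of 2610318N02Rik, whereas miR-130a-3p, at chr2:84741116-84741137, and miR-210-3p, at chr7:141221407-141221428, lie outside other genes.

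The values are on the log2 scale of a variance stabilizing transformation (VST), which the authors made with DESeq after normalization. Inverting it gave 6236953 to 7567263 miRNA reads in each of the 4 libraries, at which 3 reads stand for a CPM (reads scaled to library size) of 0.396 to 0.481. That floor covers counting error only. A difference is the mean value in NT-iPSCs minus that in NT-ESCs, and at low read numbers it falls short of the log2 fold change. Differences were tested with limma in 1 model of all 12 libraries, with Benjamini-Hochberg adjustment over the 732 miRNAs that had at least 10 reads in at least 2 libraries; 721 of the 834 members were among them, and the 113 others held at most 17 reads in any of the 4 libraries. With 2 libraries against 2, an exact permutation test of a single miRNA cannot give a p below 0.333, so the calls rest on the spread shared across libraries and miRNAs. Among the 371 miRNAs with at least 100 reads in all 4 libraries, the median absolute difference between the types was 0.42. It was 0.22 between the NT-iPSC libraries and 0.13 between the NT-ESC libraries.

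Of the 732 miRNAs, 94 (12.8%) passed an adjusted p of 0.05, all of them members, and 50 (6.83%) passed with a difference of at least 1. Of these 94, 41 (5.60%) were higher in NT-iPSCs and 53 (7.24%) lower. For 2 of the 94, miR-194-2-3p and miR-744-3p, a type had 0 reads in both libraries, so membership came from the other type alone. In none of the 94 did the values of the types overlap, which was also so for 462 miRNAs (63.1%) in all, 256 (35.0%) higher and 206 (28.1%) lower. The counts depend on every library: without NT-ESC library 71, 8 miRNAs passed, and without library 72, 13. Without NT-iPSC library 51, 39 passed, 24 higher and 15 lower, and without library 52 it was 43, 15 higher and 28 lower. No miRNA among the 94 changed sign when any library was left out, which the lack of overlap had fixed in advance. Scaling by total miRNA reads gave 20 higher and 76 lower, and moved the median difference of all miRNAs tested from 0.08 to -0.08.

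**Figure D1:**
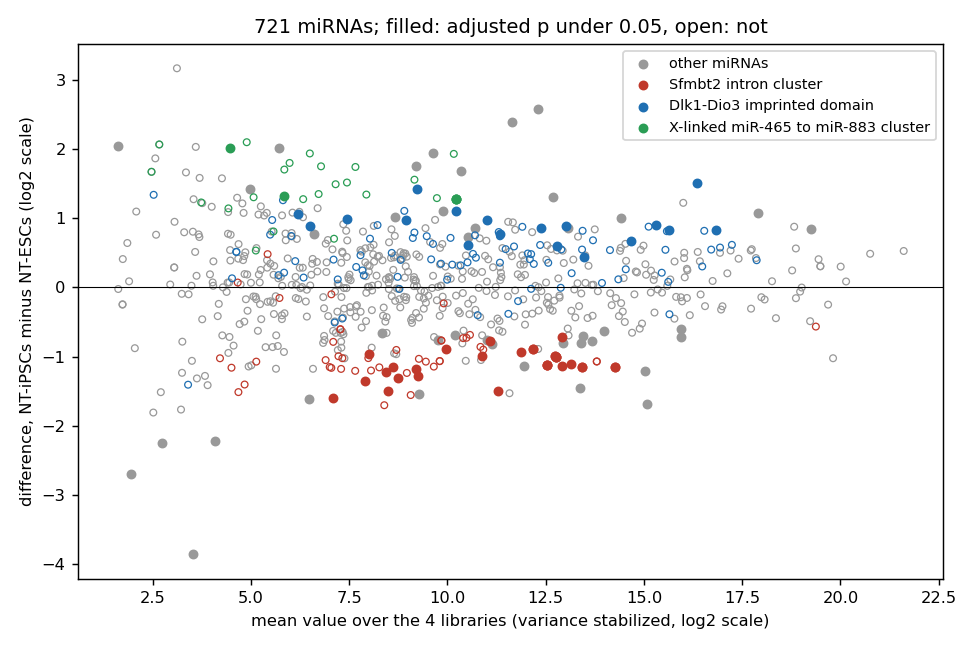
Difference between NT-iPSCs and NT-ESCs (log2 scale, vertical axis) against the mean value over the 4 libraries (log2 scale, horizontal axis) for the 721 members tested. Each point is a miRNA, filled where the limma adjusted p was under 0.05. The Sfmbt2 list (red) lies around -1.07 and the Dlk1-Dio3 list (blue) and the X-linked list (green) mostly above 0.

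The Sfmbt2 and Dlk1-Dio3 lists held 49 of the 94. In the Sfmbt2 list (every miR-297, miR-466, miR-467 and miR-669 name), 31 of 73 tested were lower in NT-iPSCs and 0 higher, beside 7.24% lower among all miRNAs tested. The median difference of the list was -1.07, beside 0.08 over all miRNAs tested, and the 31 ran from -1.60 to -0.71. In 68 of the 73, both NT-iPSC values were below both NT-ESC values, beside 28.1% of all miRNAs tested. Some of these names had the same reads in all 12 libraries and cannot be told apart, and most of their sequences were not at hand for comparison. Counted once where all 12 libraries were identical, 26 of 65 were lower. Near copies such as miR-467a-5p and miR-467b-5p were still counted separately, so these calls are not independent.

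The value of miR-669a-3p was 12.95 and 12.77 in NT-iPSCs and 14.02 and 14.001 in NT-ESCs. The difference was -1.15 (SE 0.16, limma adjusted p = 0.0041), or 2.22 times fewer normalized reads in NT-iPSCs. miR-669o-3p had the same reads in every library and cannot be told apart from it. miR-467a-5p was at 13.66 and 13.71 in NT-iPSCs against 14.57 and 15.09 in NT-ESCs, with a difference of -1.15 (SE 0.18, limma adjusted p = 0.0056). miR-467b-5p had the same values in these 4 libraries. The related miR-467d-5p and miR-467c-5p differed by -1.13 and -1.10 (limma adjusted p = 0.019 for each). In the 4 libraries alone, miR-467a-5p and miR-467d-5p missed the threshold (limma adjusted p = 0.0557 and 0.0906), while miR-467c-5p passed (limma adjusted p = 0.0457). The call of miR-467a-5p held under 15 of 17 alternatives, and those of miR-467d-5p and miR-467c-5p under 13 each. The most abundant name of the list, miR-669c-5p, was at 19.03 and 19.15 in NT-iPSCs and at 19.52 and 19.79 in NT-ESCs. Its difference of -0.57 (95% interval -1.02 to -0.12) did not pass after adjustment (limma adjusted p = 0.091).

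The list is drawn by name, and not every name in it has its hairpin in Sfmbt2 (chr2:10370510-10595253, GRCm38). For 64 tested names every hairpin of that name in GENCODE M21 was within the gene. Of these, 28 were lower, with a median of -1.07, beside 7.24% lower among all miRNAs tested. The 4 tested names with a hairpin elsewhere were miR-466i-3p, miR-466i-5p, miR-466k and miR-669n. They were all not called, with a median of -0.17, and are too few for a count of 0 to set them apart. Among them miR-466k differed by -1.02 (limma adjusted p = 0.11). The remaining 5 names either had hairpins in both places, as miR-466f did, or had none of their exact name. Within the gene, miR-669i stood apart with a difference of 0.48 (95% interval -1.75 to 2.70).

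The Dlk1-Dio3 list went the other way. Of 98 tested, 18 were higher in NT-iPSCs and 0 lower, beside 5.60% higher among all miRNAs tested. The median difference was 0.52, 88 of the 98 differences were above 0, and in 70 both NT-iPSC values were above both NT-ESC values, where 35.0% of all miRNAs tested were. The 18 ran from 0.43 for miR-369-3p to 1.51 for miR-382-3p. Summed over the list, the domain made up 7.58% and 8.24% of miRNA reads in NT-iPSCs and 6.23% and 5.76% in NT-ESCs, so the libraries of the types did not overlap.

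miR-434-5p, which is antisense to the retrotransposon-like gene Rtl1, had the smallest p of the domain. It was at 11.48 and 11.51 in NT-iPSCs and at 10.52 and 10.53 in NT-ESCs, a difference of 0.97 (SE 0.17, limma adjusted p = 0.0073). miR-496-3p was at 12.75 and 12.86 against 11.90 and 11.98, with a difference of 0.86 (SE 0.18, limma adjusted p = 0.019). In both, the libraries of a type lay far closer to each other than to the other type. miR-382-3p was more variable, at 16.55 and 17.65 in NT-iPSCs and 15.75 and 15.42 in NT-ESCs, and differed by 1.51 (SE 0.33, limma adjusted p = 0.021). It missed the threshold in the 4 libraries alone (limma adjusted p = 0.0965) and held under 12 of 17 alternatives. Its partner arm miR-382-5p rose as well, by 0.83 (SE 0.21, limma adjusted p = 0.035). Without either NT-ESC library, the calls of miR-434-5p, miR-496-3p and miR-382-3p were lost, and those of miR-496-3p and miR-382-3p also without NT-iPSC library 52. The most abundant miRNA of the domain, miR-127-3p, was at 18.17 and 17.96 against 17.68 and 17.67, and its difference of 0.39 (95% interval -0.31 to 1.10) did not pass.

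Higher members were found on both sides of the domain. Of 23 tested miRNAs with their hairpin within Mirg, 7 were higher, with a median of 0.67. Opposite Rtl1 it was 2 of 10, with a median of 0.53, and between the annotated transcripts 8 of 54, with a median of 0.46. None of the 2 within Meg3 or the 5 within Rian was called, with medians of -0.13 and 0.13. These counts stand beside 18.4% higher in the whole list and 5.60% among all miRNAs tested, and with so few miRNAs a count of 0 sets neither transcript apart. The lowest value of the list was that of miR-376c-5p, -1.41 (95% interval -3.63 to 0.82), for which NT-iPSC library 51 was at the table minimum of 0.59 and library 52 at 4.80.

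Both lists lost most of their calls without an NT-ESC library. Without library 71, 0 members of the Dlk1-Dio3 list were higher and 5 of the Sfmbt2 list lower, and without library 72 these counts were 0 and 2. Without NT-iPSC library 51 they were 10 and 6, and without library 52 they were 4 and 14, beside 2 Dlk1-Dio3 members that then passed as lower, miR-376c-5p and miR-341-3p. The medians moved less, between 0.45 and 0.61 for Dlk1-Dio3 and between -1.14 and -0.94 for Sfmbt2 with any 1 library left out. The processing moved the Dlk1-Dio3 count too, to 5 with total reads or in the 4 libraries alone, 6 without a trend, 10 with TMM-type scaling or in the 6 reprogrammed libraries, 29 with a pseudocount of 10 and 34 with voom weights, with 0 lower in each. The Sfmbt2 count was 21 in the 4 libraries alone, 55 with voom weights and 58 with a pseudocount of 10. Over all miRNAs tested, 20 were higher with total reads, 17 in the 4 libraries alone, 23 without a trend and 26 with TMM-type scaling. It was 44 in the 6 reprogrammed libraries, 76 with a pseudocount of 10 and 84 with voom weights. Lower over all were 30 in the 4 libraries alone, 88 with voom weights and 92 with a pseudocount of 10.

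**Figure D2:**
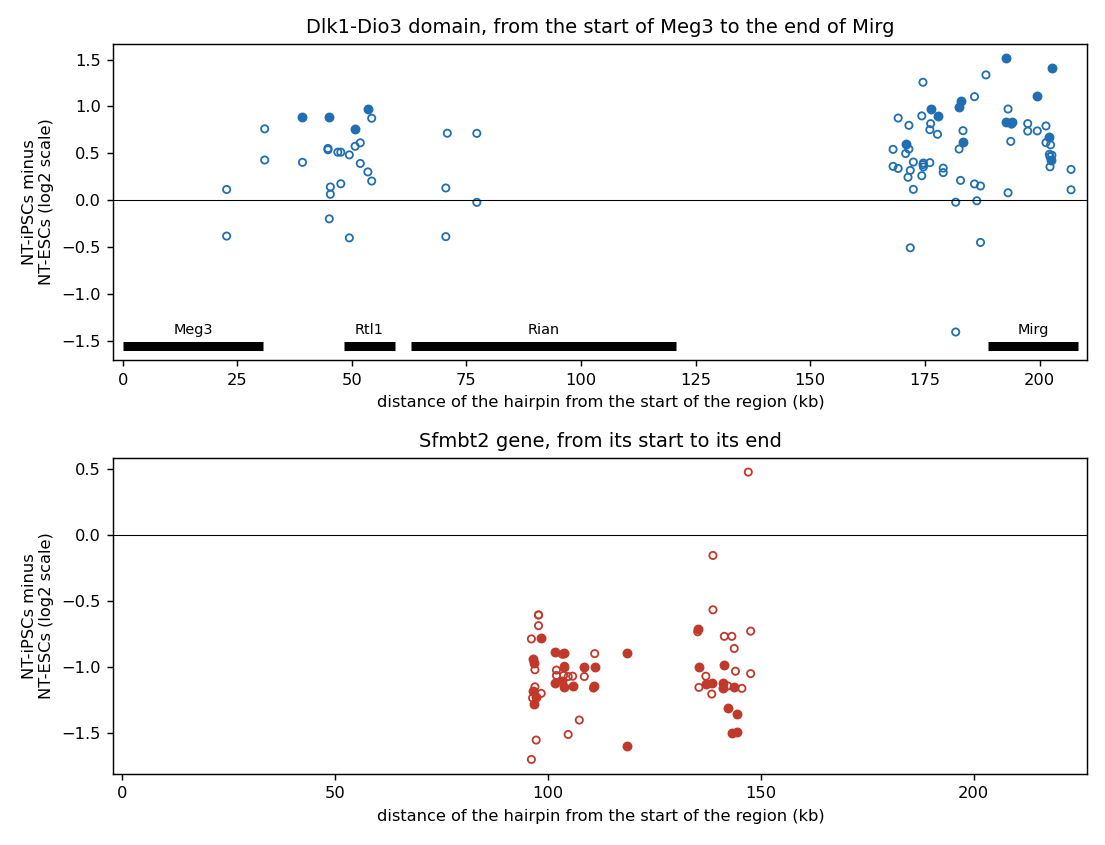
Differences between NT-iPSCs and NT-ESCs (log2 scale, vertical axes) by the distance of the hairpin from the start of the region in kb (horizontal axes), for the Dlk1-Dio3 domain with its transcripts as bars (top) and the Sfmbt2 gene (bottom). Filled points had a limma adjusted p under 0.05, 17 above 0 in the Dlk1-Dio3 domain and 30 below 0 in Sfmbt2.

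The levels of both lists in the other cell types were as follows. The median value of the Sfmbt2 list was 8.91 in NT-iPSCs and 9.99 in NT-ESCs, and it was 10.37 in iPSCs, 8.79 in ESCs and 5.71 in MEFs. That of the Dlk1-Dio3 list was 11.01 in NT-iPSCs and 10.52 in NT-ESCs, and it was 11.61 in iPSCs, 10.56 in ESCs and 10.80 in MEFs. In the Sfmbt2 list the median of the iPSCs was thus on the side of NT-ESCs, and in the Dlk1-Dio3 list on the side of NT-iPSCs. For miR-669a-3p, NT-iPSCs minus iPSCs was -1.43 (limma adjusted p = 9.1e-05) and NT-ESCs minus iPSCs -0.28 (limma adjusted p = 0.24). For miR-434-5p, the same differences were -0.16 (limma adjusted p = 0.55) and -1.13 (limma adjusted p = 0.00091). These comparisons share the iPSC libraries.

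**Figure D3:**
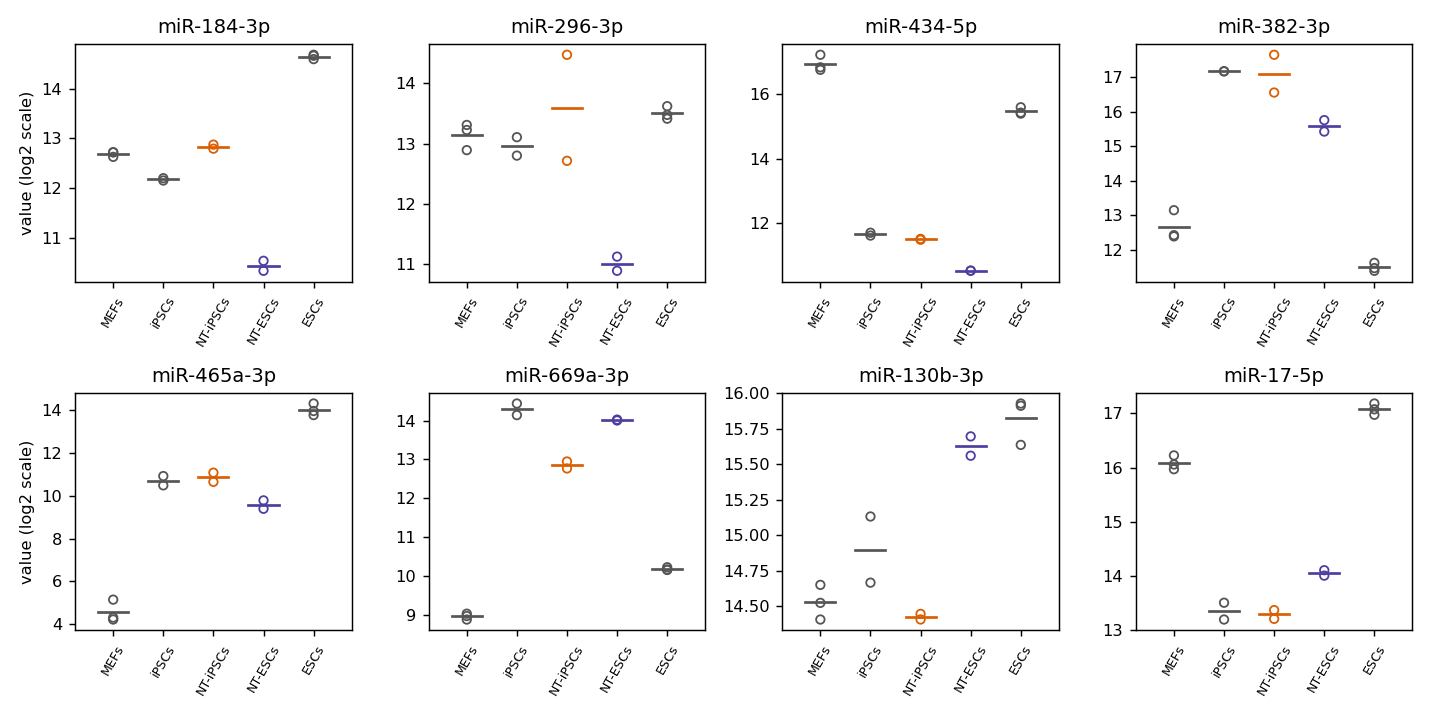
Values (log2 scale, vertical axes) of 8 miRNAs in all 12 libraries by cell type (horizontal axes); circles are libraries and lines are means. miR-184-3p and miR-296-3p are lowest in NT-ESCs, while miR-669a-3p in NT-iPSCs lies below NT-ESCs and iPSCs.

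The X-linked cluster from miR-465 to miR-883, a testis-enriched and fast-evolving group of miRNAs, also lay higher in NT-iPSCs, though few of its members passed. All 27 tested had a difference above 0, and in all 27 the values of the types did not overlap, beside 35.0% higher without overlap among all miRNAs tested. The median difference was 1.35, and 5 passed, between 1.27 and 2.01, beside 5.60% higher among all tested. This count moved with the settings, to 19 with voom weights or a pseudocount of 10, 15 with a pseudocount of 1, 11 in the 6 reprogrammed libraries alone, and 1 with total reads or in the 4 libraries alone. Over all 732 tested, 84 were higher with voom weights, 76 and 58 with pseudocounts of 10 and 1, and 44 in the 6 reprogrammed libraries. With total reads it was 20 and in the 4 libraries alone 17, against the 41 given above. Of the 5 that passed, miR-465a-3p, miR-465b-3p and miR-465c-3p have the same sequence, and their counts are not independent. miR-465a-3p and miR-465b-3p had 455 and 605 reads in NT-iPSCs and 224 and 233 in NT-ESCs each, and miR-465c-3p had 452 and 605 against 224 and 232. miR-465a-3p was at 10.65 and 11.08 in NT-iPSCs and at 9.39 and 9.79 in NT-ESCs, a difference of 1.28 (SE 0.34, limma adjusted p = 0.036). miR-471-3p was at 5.98 and 4.98 against 3.56 and 3.37, which came from 17 and 8 against 3 and 2 reads, and differed by 2.01 (SE 0.52, limma adjusted p = 0.036). The cluster was scarce, with at most 0.0473% of the miRNA reads of these libraries. With any 1 of the 4 libraries left out, at most 1 of the 27 passed, while the median stayed between 1.17 and 1.52.

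miR-184-3p, an imprinted miRNA of epithelia and the nervous system, had the smallest p of all. It was at 12.79 and 12.88 in NT-iPSCs and at 10.35 and 10.55 in NT-ESCs, a difference of 2.39 (SE 0.14, limma adjusted p = 2.2e-06) or 5.24 times more normalized reads. NT-ESCs were also below the iPSCs, by -1.73 (limma adjusted p = 6.2e-05), and below the MEFs, by -2.25 (limma adjusted p = 1.3e-08). NT-iPSCs were above the iPSCs by 0.66 (limma adjusted p = 0.0051), and their difference from MEFs was 0.14 (limma adjusted p = 0.3). Thus NT-ESCs, not NT-iPSCs, had the level farther from that of the fibroblasts.

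miR-296-3p comes from the imprinted Gnas domain. Its values were 12.72 and 14.47 in NT-iPSCs and 10.89 and 11.13 in NT-ESCs, and it showed the largest rise among the 41, 2.58 (SE 0.42, limma adjusted p = 0.0056). The NT-iPSC libraries differed from each other by more than 1 unit here, though both were above both NT-ESC libraries. The call was lost without NT-ESC library 71, in the 6 reprogrammed libraries alone and in the 4 libraries alone (95% interval 0.72 to 4.45, limma adjusted p = 0.082). Its other arm, miR-296-5p, differed by 0.35 and was not called (limma adjusted p = 0.53). In the list of imprinted miRNAs outside Dlk1-Dio3, the differences of all 11 tested were above 0, with a median of 0.73. Of these, miR-184-3p and miR-296-3p passed, beside 5.60% higher among all miRNAs tested. The count of 2 became 4 without NT-iPSC library 52 and 1 without NT-ESC library 71. miR-298-5p, the most abundant, differed by 0.60 (95% interval 0.07 to 1.13, limma adjusted p = 0.12).

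Other miRNAs rose singly. miR-22-3p, known from heart and muscle, was at 14.96 and 14.89 in NT-iPSCs and at 13.84 and 14.01 in NT-ESCs, a difference of 0.999 (SE 0.15, limma adjusted p = 0.0046). Its other arm miR-22-5p rose by 0.86 (limma adjusted p = 0.036). miR-142-3p, a marker of blood cells, was at 10.43 and 9.69 against 8.46 and 8.16, and differed by 1.75 (SE 0.25, limma adjusted p = 0.0045). Its other arm miR-142-5p was at 13.34 and 13.35 against 11.92 and 12.15, a difference of 1.31 (SE 0.21, limma adjusted p = 0.0056). For both hairpins the arms moved together. Without NT-ESC library 71, miR-22-3p and miR-142-5p missed the threshold, and miR-142-3p missed it in the 4 libraries alone. Among the blood and endothelial miRNAs, these 2 of 10 were higher, beside 5.60% among all miRNAs tested, the median difference was 0.14, and miR-146a-5p, the most abundant, differed by 0.13 (95% interval -0.26 to 0.52).

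miR-344-3p, a miRNA of the brain, was at 10.18 and 11.03 in NT-iPSCs and at 8.80 and 8.54 in NT-ESCs, and differed by 1.94 (SE 0.34, limma adjusted p = 0.0073). The neuronal miR-132-3p was at 8.91 and 9.41 against 8.07 and 8.22, a difference of 1.02 (SE 0.21, limma adjusted p = 0.019). miR-212-3p, with the same seed and from the same transcript, differed by 0.68 (95% interval 0.08 to 1.27, limma adjusted p = 0.12). The highly abundant miR-21-5p was at 19.61 and 19.72 against 18.73 and 18.92 and rose by 0.84 (SE 0.18, limma adjusted p = 0.02), whereas miR-21-3p differed by -0.72 (95% interval -1.81 to 0.38). The calls of miR-344-3p, miR-132-3p and miR-21-5p were lost in the 4 libraries alone and without either NT-ESC library, and that of miR-132-3p also without NT-iPSC library 52 and in the 6 reprogrammed libraries, so it held under 12 of 17 alternatives. miR-21-5p also missed under TMM-type scaling and without either NT-iPSC library. The call of miR-194-2-3p rested on 1 read in each NT-iPSC library and 0 in each NT-ESC library, which is under the floor of 3 reads. It was a member only through the type in which it had reads, so its groups could not overlap.

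**Figure D4:**
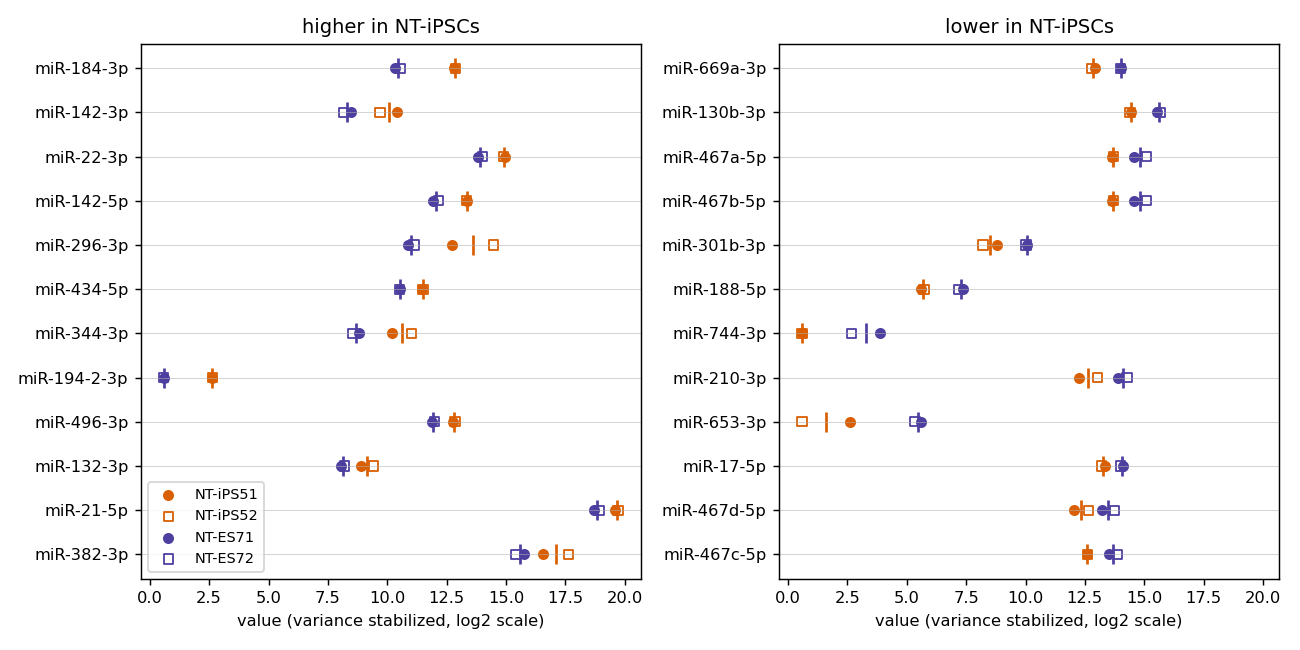
Values (log2 scale, horizontal axes) in NT-iPSC (orange) and NT-ESC (purple) libraries for the 12 strongest calls in each direction by p, 51 and 71 as filled circles, 52 and 72 as open squares, and means as ticks. Calls identical in all 12 libraries were counted once, so miR-669o-3p has no row beside miR-669a-3p. The near copies miR-467a-5p and miR-467b-5p each have a row. No row overlaps between the types, since the calls shown were chosen among those without overlap, and miR-194-2-3p, miR-744-3p and miR-653-3p are at the low end.

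Among the miRNAs lower in NT-iPSCs outside the Sfmbt2 list, miR-130a, miR-130b and miR-301b were picked out after their values were seen. miR-130b-3p was at 14.44 and 14.41 in NT-iPSCs and at 15.56 and 15.70 in NT-ESCs, a difference of -1.20 (SE 0.18, limma adjusted p = 0.0049). miR-301b-3p, from the same chromosomal locus, was at 8.80 and 8.21 against 10.07 and 10.02, with a difference of -1.54 (SE 0.25, limma adjusted p = 0.0058), a call lost without NT-ESC library 71 and in the 4 libraries alone. miR-130a-3p, printed above with the same seed as miR-130b-3p, fell by 0.72 (SE 0.18, limma adjusted p = 0.035). The remaining tested miRNA with a RefSeq sequence of this seed, miR-301a-3p, differed by 0.15 (95% interval -0.73 to 1.02). The other arm of miR-130b also fell, by 0.77 (limma adjusted p = 0.035), while that of miR-130a differed by 0.48 (limma adjusted p = 0.43).

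In the miR-17-92 cluster and its paralogs, 4 of 28 tested were lower and 0 higher, beside 7.24% lower among all miRNAs tested, and the median difference was -0.38. With total reads 9 were lower, with voom weights or a pseudocount of 10 it was 7, and in the 4 libraries alone or without a trend 2. Over all miRNAs tested, 76 were lower with total reads, 88 with voom weights and 92 with a pseudocount of 10. In the 4 libraries alone it was 30 and without a trend 43. miR-17-5p was at 13.36 and 13.20 in NT-iPSCs and at 14.10 and 14.0003 in NT-ESCs, a difference of -0.77 (SE 0.16, limma adjusted p = 0.019). The others called were its arm miR-17-3p, miR-18a-5p and miR-20b-5p, between -0.81 and -0.70. All 6 tested miRNAs with the seed of miR-17-5p in their RefSeq sequence had differences below 0, from -0.89 for miR-106a-5p to -0.41 for miR-106b-5p, and miR-17-5p and miR-20b-5p passed. The most abundant of the clusters, miR-25-3p, was at 19.19 and 18.78 against 19.41 and 19.53 and differed by -0.49 (95% interval -0.97 to -0.01, limma adjusted p = 0.16). Without NT-iPSC library 52, or without either NT-ESC library, 0 of the 28 passed.

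miR-210-3p, which hypoxia induces, was at 12.25 and 13.04 in NT-iPSCs and at 13.91 and 14.27 in NT-ESCs, a difference of -1.45 (SE 0.26, limma adjusted p = 0.0093). The X-linked miR-188-5p was at 5.61 and 5.73 against 7.36 and 7.19, from 13 and 14 against 54 and 38 reads, and differed by -1.61 (SE 0.27, limma adjusted p = 0.0062). miR-182-5p was at 15.63 and 15.64 against 16.25 and 16.23 and fell by 0.61 (SE 0.14, limma adjusted p = 0.028), as the only one of 6 tested arms of the miR-183 cluster. That call was lost without any 1 of the 4 libraries and without a trend, and held under 12 of 17 alternatives. Those of miR-210-3p and miR-188-5p were lost without NT-ESC library 71, and that of miR-210-3p also without library 72 and in the 4 libraries alone. In the epithelial miR-200 family 1 of 9 was lower. A single call in lists of this size is close to the 7.24% lower among all miRNAs tested. The call was miR-200c-3p, lower by 1.13 (limma adjusted p = 0.038) and past the threshold under 11 of 17 alternatives, while miR-200a-3p, the most abundant, differed by -0.26 (95% interval -0.65 to 0.13). miR-653-3p had 1 and 0 reads in NT-iPSCs and 15 and 10 in NT-ESCs. For miR-744-3p these were 0 and 0 against 4 and 1, and for the neural list's miR-128-1-5p 2 and 1 against 11 and 9. These 3 calls thus rest on few reads, and miR-744-3p was a member only through its NT-ESC libraries.

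The markers of pluripotent cells did not pass. None of 14 tested miRNAs of the miR-290 cluster was called, beside 12.8% of all miRNAs tested, and with so few miRNAs a count of 0 does not set the cluster apart. Yet 13 of the 14 differences were below 0, with a median of -0.28. In 7 of the 14 both NT-iPSC values were below both NT-ESC values, where 28.1% of all miRNAs tested were. The cluster held 14.4% and 13.5% of miRNA reads in NT-iPSCs and 19.5% and 19.6% in NT-ESCs, beside at most 0.00125% in any MEF library. miR-290-5p was at 20.14 and 20.23 in NT-iPSCs and at 19.99 and 20.21 in NT-ESCs, a difference of 0.08 (95% interval -1.59 to 1.76), the only one above 0. miR-291b-5p, with the smallest p of the cluster, differed by -0.44 (95% interval -0.86 to -0.03, limma adjusted p = 0.15). That of miR-293-3p, at 19.58 and 19.02 against 20.36 and 20.29, was -1.02 (95% interval -2.58 to 0.53, limma adjusted p = 0.36). The difference of the abundant miR-302a-5p was 0.39 (95% interval -1.43 to 2.22), and 0 of 9 tested of its cluster passed. These wide intervals carry the spread of MEF libraries with almost no reads, since all 12 libraries share 1 model. The SD of miR-290-5p was 1.69 in MEFs (n = 3), 0.07 in NT-iPSCs and 0.15 in NT-ESCs (n = 2 each), and that of miR-302a-5p was 1.84, 0.42 and 0.20. In a fit of the 4 libraries alone, the interval was -0.33 to 0.49 for miR-290-5p and -0.33 to 1.12 for miR-302a-5p. It was -1.70 to -0.35 for miR-293-3p and -0.84 to -0.05 for miR-291b-5p (limma adjusted p = 0.068 and 0.12), and 4 of the 14 intervals of the miR-290 cluster lay below 0, while 0 passed there.

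The let-7 family, which accumulates as cells differentiate, held 33.7% and 33.5% of miRNA reads in NT-iPSCs and 27.0% and 26.9% in NT-ESCs, beside 10.1% and 10.95% in iPSCs and 18.3% to 21.8% in MEFs. In normalized reads, the scale of the tests, the order against MEFs was another. The family summed to 2069045 and 2011563 in NT-iPSCs, within the 1981123 to 2215111 of MEFs, and to 1415422 and 1465509 in NT-ESCs, below it. Of 20 tested, 1 was higher, no more than the 5.60% among all miRNAs tested, with a median of 0.42. The miRNA called was let-7i-5p, at 18.12 and 18.77 in NT-iPSCs and 17.41 and 17.31 in NT-ESCs, with a difference of 1.08 (SE 0.29, limma adjusted p = 0.037). It passed under 11 of 17 alternatives, and missed under TMM-type scaling, without a trend, in the 4 libraries alone, and without NT-iPSC library 52 or either NT-ESC library. The most abundant, let-7f-5p, was at 21.97 and 21.77 against 21.32 and 21.37, and its difference of 0.52 (95% interval 0.15 to 0.90) did not pass (limma adjusted p = 0.066). In the family of miR-34 and miR-449 1 of 8 passed, beside 5.60% higher among all miRNAs tested. It was miR-449a-5p, higher by 1.11 (limma adjusted p = 0.041) but past the threshold under only 10 of 17 alternatives, and miR-34c-5p, the most abundant, differed by 0.53 (95% interval 0.06 to 1.01). None of the 6 tested in the miR-29 family passed, where miR-29a-3p differed by 0.41 and miR-29c-3p by 0.55 (limma adjusted p = 0.17 and 0.13).

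Feeder fibroblasts could contribute RNA to both types, and in bulk RNA fewer cells of a type and less RNA per cell cannot be told apart. None of the 10 fibroblast and mesenchymal markers (miR-199a, miR-199b, miR-214, miR-143 and miR-145 arms) passed, beside 12.8% of all miRNAs tested, and none was at 0. With so few miRNAs a count of 0, here and for the muscle and Hox miRNAs below, sets no list apart. The list held 7.14% and 6.18% of miRNA reads in NT-iPSCs, 6.05% and 6.14% in NT-ESCs and 6.56% to 9.96% in MEFs. In normalized reads it summed to 437759 and 371515 in NT-iPSCs, 317346 and 335157 in NT-ESCs and 665818 to 1124766 in MEFs, which made NT-iPSCs 1.24 times NT-ESCs. In NT-iPSC library 51, miR-199a-3p alone had 253991 of the 535406 reads of the list. Beside it was counted miR-199b-3p, also with a difference of 0.30. miR-199a-3p was above MEFs, by 1.08 in NT-iPSCs and 0.78 in NT-ESCs (limma adjusted p = 0.00054 and 0.0050). Its other arm miR-199a-5p differed from MEFs by -4.49 and -5.44. The sums therefore follow miR-199a-3p and do not give a share of fibroblasts. Of the 10 differences 9 were above 0, with a median of 0.26. miR-199a-5p differed by 0.95 (95% interval 0.24 to 1.66, limma adjusted p = 0.073) and passed, at 1.59, without NT-iPSC library 51, while miR-199a-3p differed by 0.30 (95% interval -0.20 to 0.81). Of the muscle miRNAs, which made up 10.7% to 12.7% of reads in these MEFs, 0 of 7 passed. They held 0.196% and 0.185% in NT-iPSCs and 0.192% and 0.190% in NT-ESCs, and miR-1a-3p and miR-206-3p differed by 0.11 and 0.53 (limma adjusted p = 0.8 and 0.14). The Hox cluster miRNAs also had 0 of 11 called, with miR-10a-5p at a difference of 0.42 (limma adjusted p = 0.085) and miR-10b-3p, on 7 and 6 against 1 and 0 reads, at 3.16 (limma adjusted p = 0.054). Of the neural miRNAs, 1 of 11 was lower, beside 7.24% among all miRNAs tested, and miR-128-3p, the most abundant, differed by -0.14 (95% interval -0.53 to 0.25). The part of the feeder cells in the differences above was not tested.

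**Figure D5:**
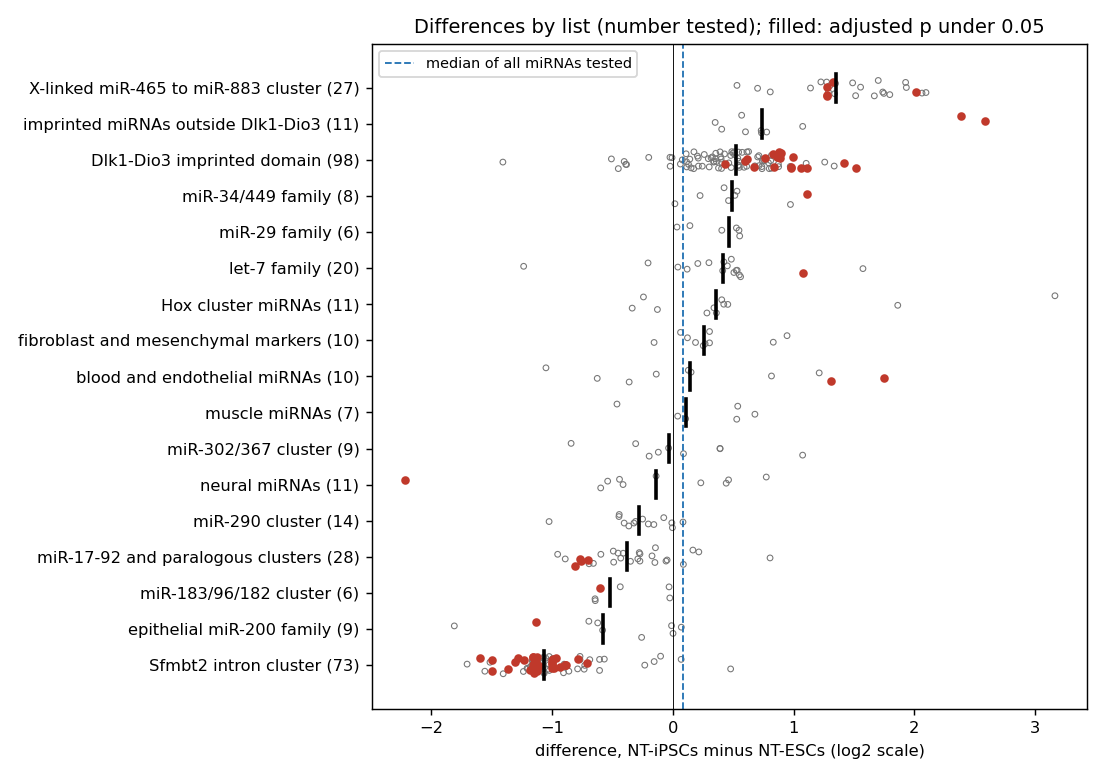
Differences between NT-iPSCs and NT-ESCs (log2 scale, horizontal axis) of the members in each list (rows, with the number of miRNAs tested), filled where the limma adjusted p was under 0.05. Thick bars are the medians over all tested, from -1.07 for the Sfmbt2 list to 1.35 for the X-linked list, and the dashed line is the median of all miRNAs tested, 0.08.

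The arms of a hairpin gave a further comparison. Both arms were tested for 254 hairpins, and at least 1 arm was called for 65. In 60 of these 65 the other arm differed in the same direction, beside 200 of all 254. Both arms were called for 10 hairpins, miR-17, miR-22, miR-130b, miR-142, miR-297a, miR-382, miR-466f, miR-466h, miR-669a and miR-669f, and in all 10 the arms moved the same way. The 5 in which the other arm had the opposite sign were miR-21, miR-130a, miR-140, miR-540 and miR-744, and in none of them was the other arm itself called. For miR-540, of the Dlk1-Dio3 domain, the 3p arm rose by 0.88 and the 5p arm differed by -0.20.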

How the data were processed

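Upstream read cleaning and normalization with DESeq were done by the authors, who deposited variance stabilized values on a log2 scale. The submitters' processing notes name the build mm8; coordinates given here are those of GRCm38 and were not converted. The transformation was inverted, and 100% of 9458 nonzero values came out as whole reads within 0.05 read. The deposited values were tested with limma 3.58.1 in R 4.3.3, with a trend, in 1 model of 12 libraries with 5 group means, two-sided and without covariates. The named miRNAs were, in each direction, the 12 lowest p among calls without overlap, where miRNAs identical in all 12 libraries were counted once. From each list came the most abundant member and that with the smallest p. Others were chosen after their values were seen. Members and lists were chosen with earlier results of these data known. On simulated data for this comparison (728 miRNAs), the test found 84% of changes of 1 and 100% of changes of 2, and called 1.70% of the unchanged miRNAs. The changed miRNAs were drawn only from those with at least 100 reads in all 12 libraries, with a common spread between libraries. How many changes would be found among scarcer miRNAs was not simulated. Sequences were matched by name (804 of 1042 miRNAs) and hairpins by name in GENCODE M21. Python 3.11.15, numpy 2.4.6, pandas 2.3.3 and matplotlib 3.10.9 were used. Alternatives covered scaling, filters, transformation, the libraries fitted, and each library left out.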

Additional observations from a re-analysis of the deposited data

How the results depend on the processing

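The 17 alternatives turned the sign of none of the 94 miRNAs that passed, but most of them could not have done so. Leaving out 1 library cannot turn values that do not overlap, and filters, trend and other groups do not enter the difference. Scaling moved the median of all miRNAs tested from 0.08 to -0.08 at most, while the smallest difference called was 0.43 in size. Among the 31 named miRNAs past the threshold, miR-184-3p, miR-130b-3p and miR-669a-3p stayed past it under all 17, and of 522 values under the alternatives 421 stayed and 101 missed it. Of the 21 named that did not pass, 7 passed under at least 1 alternative, in 12 of 355 values. Of 94 miRNAs in all (41 higher and 53 lower, 50 with a difference of at least 1), TMM-type scaling gave 26 higher (34.2% of its calls, against 43.6%), total reads 20 higher (20.8%) and a fit without a trend 23 higher. More passed with a pseudocount of 10 (168, 76 higher and 92 lower) and with voom weights (172, 84 higher, 88 lower and 84 with a difference of at least 1). A fit of only the 4 libraries gave 47 (17 higher, 30 lower, 24 with a difference of at least 1), of which 34 were among the 94. The causes of these shifts were not tested, but that fit has fewer samples. With 1 library left out, the lone library being assumed to vary like the other groups, 8 to 43 passed, 2 to 24 higher and 6 to 28 lower, and 8 to 41 with a difference of at least 1. All 8 without NT-ESC library 71, and 11 of the 13 without library 72, were among the 94. Upper quartile scaling, the filters, a pseudocount of 1, the 6 reprogrammed libraries alone and identical miRNAs counted once left the total within 1.5 times. The calls themselves changed more in the 6 reprogrammed libraries alone, where 99 passed and 62 of them were among the 94. No paired analysis was possible because NT-iPSCs and NT-ESCs have no library number in common. Depth limits calls at few reads, and 4 of the 94 had a library with 0 reads.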
